A study of Sinibotia superciliaris with 2 samples.

Results

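Melanin synthesis and melanosome cargo genes were examined in skin of Sinibotia superciliaris (Botia superciliaris), a loach with a striped pattern of black and yellow skin. The set held every assembled transcript cluster (unigene) whose closest Swiss-Prot protein was TYRO, TYRP1, PMEL, NCKX5 or RAB38, which gave 6 unigenes for 5 genes, of 124650 unigenes and 4058 annotated genes in all. The fish were wild adults from the Chin-sha River watershed, 6.25 ± 0.30 g in weight and 8.75 ± 0.20 cm in length, with no statement of whether ± is an SD or an SE. Black skin and yellow skin were taken from 6 individuals, and total RNA of each colour was sequenced as 1 library, so both groups are untreated adult skin and, by the labels, differ in colour. The labels do not say whether RNA of the 6 fish was pooled. With 1 library per colour there is no replicate check and no test across fish, and every comparison below is between these libraries.

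Melanin is made inside melanosomes, pigment organelles of the melanophore, the black pigment cell of fish skin. Tyrosinase starts the pathway by oxidising tyrosine, and tyrosinase-related enzymes act on later intermediates and lead to black eumelanin. PMEL builds the fibrils on which the pigment is laid down, ion transporters set the conditions inside the organelle, and Rab GTPases bring the enzymes to it in vesicles.

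Levels are given as RPM (reads per 1000000 reads of the library), and ratios are black RPM over yellow RPM. The intervals are 95% intervals (Poisson for a level, Clopper-Pearson for a ratio or a share). They count a read pair once and cover counting error only. Depth was 35386871 reads for black skin and 38323075 for yellow skin. An abundance minimum, a mean of 1 RPM across the libraries, was met by 3644 annotated genes. The median ratio of these genes was 1.17, with the 5th percentile at 0.786 and the 95th at 1.73, so a ratio near 1.17 is that of an ordinary gene here. Unigene lengths were not used here, so levels are compared between libraries for a gene. Where read numbers, shares or sums of several genes are given, they may also reflect transcript length and do not rank genes by transcript number.

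The unigenes carried the protein domains of the genes they are named after. The tyrosinase unigene, c73690_g1, carried a predicted coding stretch of 633 bases with the central domain of tyrosinase, and its closest match in the non-redundant protein database was goldfish tyrosinase. The TYRP1 unigene, c108141_g3, carried 984 coding bases with the same domain and 1 predicted membrane helix, and its Swiss-Prot match was goldfish TYRP1 at a BLASTX E-value of 3e-162. The PMEL unigene, c92947_g1, held the longest stretch, 2115 bases, with a predicted signal peptide over residues 1 to 18, a PKD domain and 1 membrane helix. Its closest non-redundant match was PMEL of Latimeria chalumnae, and its Swiss-Prot match was chicken PMEL at a BLASTX E-value of 1e-98. The NCKX5 unigene, c139776_g1, held 1032 bases with a sodium/calcium exchanger domain and 7 predicted helices, and matched zebrafish NCKX5. RAB38 was represented by a pair of unigenes with a Ras family domain, c54752_g1 with 351 coding bases and c78089_g1 with 309. The coding stretches of the TYRO unigene and of c78089_g1 reached base 1 of the unigene. Those of the NCKX5 unigene and of c54752_g1 reached base 2, so these 4 proteins may be incomplete. The TYRP1 protein may be incomplete too, since no signal peptide was predicted for it, and completeness was not otherwise checked. A best match does not establish orthology, and near-identical gene copies cannot be separated.

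All 5 genes were higher in the black library, by 6.81-fold to 21.7-fold. Summed over the 5 genes, the black library stood at 22.8 RPM (interval 20.6 to 25.1) and the yellow library at 2.14 RPM (1.53 to 2.90). The ratio of the sums was 10.6 (7.71 to 15.1), from 806 black and 82 yellow reads. In bulk skin, fewer melanophores and less RNA per melanophore cannot be told apart. The level intervals of the libraries did not overlap for any of the 5 genes. How many of all genes show such a gap was not counted, so it does not set the members apart.

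**Figure D1:**
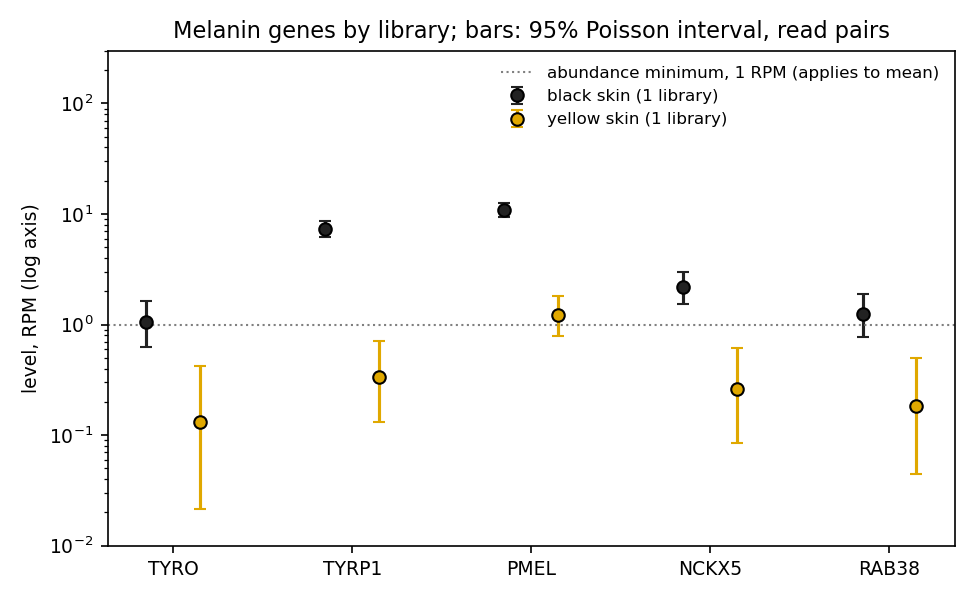
Level of each gene in RPM (log axis) in the black and the yellow skin library, with 1 point per library and bars for the 95% Poisson interval of read pairs. The black point lies above the yellow one for all 5 genes, from 1.05 against 0.130 RPM for TYRO to 11.0 against 1.23 RPM for PMEL.

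Of the enzymes, tyrosinase (TYRO), which catalyses the rate-limiting first step of melanin synthesis, was at 1.05 RPM in black skin (0.624 to 1.64) and 0.130 RPM in yellow skin (0.0217 to 0.418). The yellow value rested on 5 reads against 37 in the black library, and the ratio of 8.01 had a wide interval of 2.16 to 52.2. TYRP1, which acts downstream of tyrosinase in eumelanin synthesis and is known to stabilise it in mammals, was at 7.34 RPM (6.14 to 8.72) in the black and 0.339 RPM (0.131 to 0.717) in the yellow library. TYRP1 thus had 260 black reads and 13 yellow reads. Its ratio of 21.7 (9.96 to 57.3) was the highest of the 5 genes, but the intervals overlapped in all 10 pairs of members, and no difference between the ratios of members was tested.

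A pair of further unigenes shared the identifier stem of the TYRP1 unigene and were without a protein match. Of these, c108141_g2 had 85 reads in black skin (2.40 RPM) and 0 in yellow skin. A count of 0 there allows up to 3 reads taken singly, or 0.0782 RPM. With pairs counted once, the interval of its ratio began at 11.9. The other, c108141_g1, had 33 black reads and 6 yellow, with a ratio of 5.96 (1.71 to 31.8). All 3 unigenes of that identifier were on the black side, at 378 black reads together (10.7 RPM) against 19 yellow reads (0.496 RPM), a ratio of 21.5 (11.3 to 46.7). What the shared stem stands for is not stated in the files, so these reads were not added to TYRP1.

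PMEL, the structural protein whose amyloid fibrils line the melanosome, gave the most reads of the 5 genes. It was at 11.0 RPM in the black library (9.47 to 12.6, 388 reads) and 1.23 RPM in the yellow library (0.781 to 1.83, 47 reads). Its ratio of 8.94 had the narrowest interval of the set, 5.81 to 14.4. Annotated proteases of the families known in mammals to cut PMEL on its way to fibrils had smaller ratios. BACE2 had a ratio of 1.45 (1.20 to 1.74), the proprotein convertase FURIN 1.80 (1.09 to 3.03) and its relative PCSK6 1.41 (1.26 to 1.58). The intervals of all 3 lay below that of PMEL.

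NCKX5, the product of SLC24A5, exchanges sodium, potassium and calcium across an intracellular membrane, and its loss gives the golden zebrafish its pale melanophores. It was at 2.17 RPM in the black library (1.54 to 2.98) and 0.261 RPM in the yellow library (0.0847 to 0.609). With 77 black and 10 yellow reads, the ratio was 8.34 (3.28 to 27.1). The other annotated gene of this exchanger family, NCKX1, was at 2.26 RPM in black and 0.809 RPM in yellow skin, with a ratio of 2.79 (1.52 to 5.39). The closest non-redundant match of that unigene was an NCKX2-like protein, so which family member it is remains uncertain.

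RAB38 is a small GTPase that, together with RAB32, steers tyrosinase and TYRP1 to melanosomes in mammals. Summed over its unigenes, it was at 1.24 RPM in the black library (0.779 to 1.88) and 0.183 RPM in the yellow library (0.0441 to 0.496), from 44 and 7 reads. The ratio was 6.81 (2.19 to 30.5). Its unigenes were unequal in reads. The longer, c54752_g1, had 35 black reads and 3 yellow, with a ratio of 12.6 (2.56 to 188), and the shorter, c78089_g1, had 9 and 4, with a ratio of 2.44 (0.376 to 26.2). The interval of the shorter unigene included no difference, and it overlapped that of the longer. Whether these are pieces of 1 gene or separate copies cannot be told apart, since zebrafish proteins under different names were the closest matches. RAB32, the nearest relative of RAB38, stood at 12.4 RPM in black and 10.5 RPM in yellow skin, with a ratio of 1.18 (0.970 to 1.44) whose interval lay below that of RAB38. RAB27A, which tethers mature melanosomes to their motor in mammals, had a ratio of 1.07 (1.01 to 1.13).

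The gap of these genes was set against that of all annotated genes. TYRP1, PMEL and NCKX5 passed the minimum of 1 RPM, and TYRO and RAB38, with means of 0.588 and 0.713 RPM, did not. By a rule of at least 2-fold on the log2(RPM + 1) scale, which understates differences of low genes, 3 of the 5 members were called for black skin. The same rule called 30 of 3644 genes for black skin (0.823%) and 5 for yellow skin (0.137%). At 4-fold it called TYRP1, PMEL and ZP3, which are 2 members among 3 genes (0.0823%). Without the 100 most abundant unigenes in the library totals, the split was 29 against 13 genes. TYRP1, PMEL and NCKX5 had the 3 highest RPM ratios of the 3644 genes. TYRP1 and NCKX5, at 0.339 and 0.261 RPM in yellow skin, met the minimum only through their black level. The members were also chosen with earlier results of these data known, so the calls and ranks given here are a description only. On the log2(RPM + 1) scale TYRP1 and PMEL were at 2.64 and 2.43 and ranked 1 and 2, and NCKX5 was at 1.33 and ranked 14, beside a median of 0.21 over all genes past the minimum.

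To include the genes below the minimum, a rule chosen after seeing the data asked for a ratio interval wholly above 2, at any level. It took in all 5 members and 32 of 4058 genes (0.789%) on the black side, and 4 genes (0.0986%) on the yellow side. By the lower bound of the interval, TYRP1 ranked 1, PMEL 2, NCKX5 5, RAB38 20 and TYRO 23 of the 4058. At low read numbers wide ratios are more common, so the 3 members with the fewest reads were also read against genes of like depth. Of 190 genes with 42 to 87 reads in all, 3 (1.58%) had a ratio at or above that of RAB38, and these were TYRO, NCKX5 and RAB38 themselves. The median ratio of the 190 genes was 1.25. Both limits were set by values of the members, so this is a description only.

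**Figure D2:**
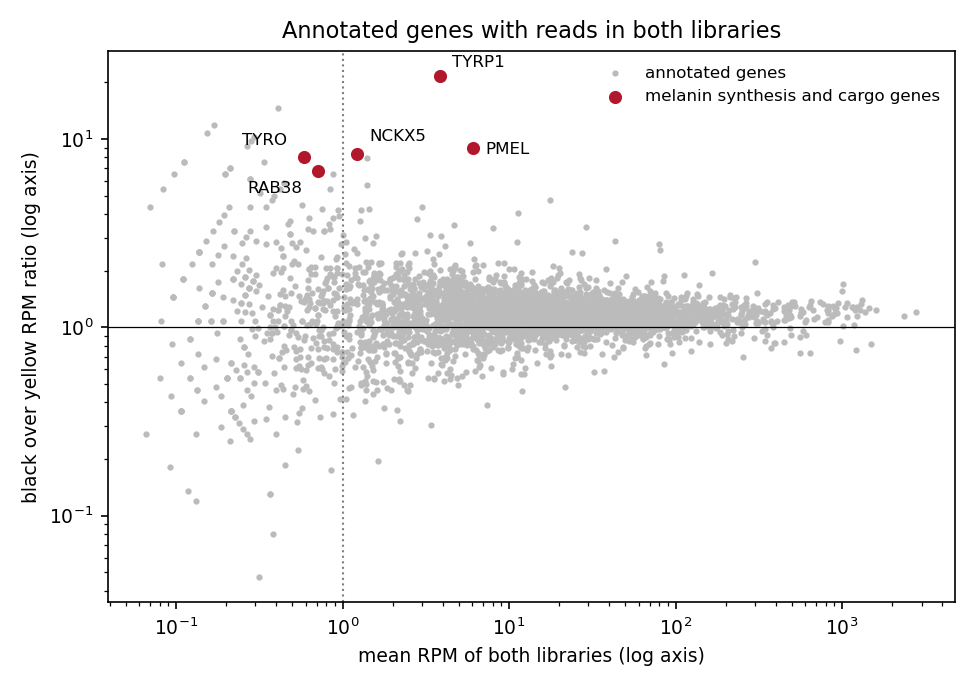
Black over yellow RPM ratio against the mean RPM of both libraries (log axes) for 4042 annotated genes with reads in both, where 16 genes with 0 reads in a library are not drawn and the dotted line marks the minimum of 1 RPM. TYRP1, PMEL and NCKX5 have the highest ratios to the right of the dotted line, while TYRO and RAB38, at 8.01 and 6.81, lie to its left, where the ratios of all genes spread more widely.

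Within the reads of the 5 genes, the make-up of the libraries was compared, with no correction for transcript length. PMEL took 48.1% of these reads in the black library (43.2 to 53.1) and 57.3% in the yellow library (40.9 to 72.6). TYRP1 took 32.3% (27.7 to 37.1) and 15.9% (6.35 to 30.6). TYRO had the smallest share in both libraries, 4.59% (2.76 to 7.12) in black and 6.10% (1.03 to 18.3) in yellow skin. The share of TYRP1 was the member share that differed most between the libraries, and its intervals overlapped, as did those of the other 4. The difference in make-up itself was not tested, and the yellow shares rest on 82 reads.

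**Figure D3:**
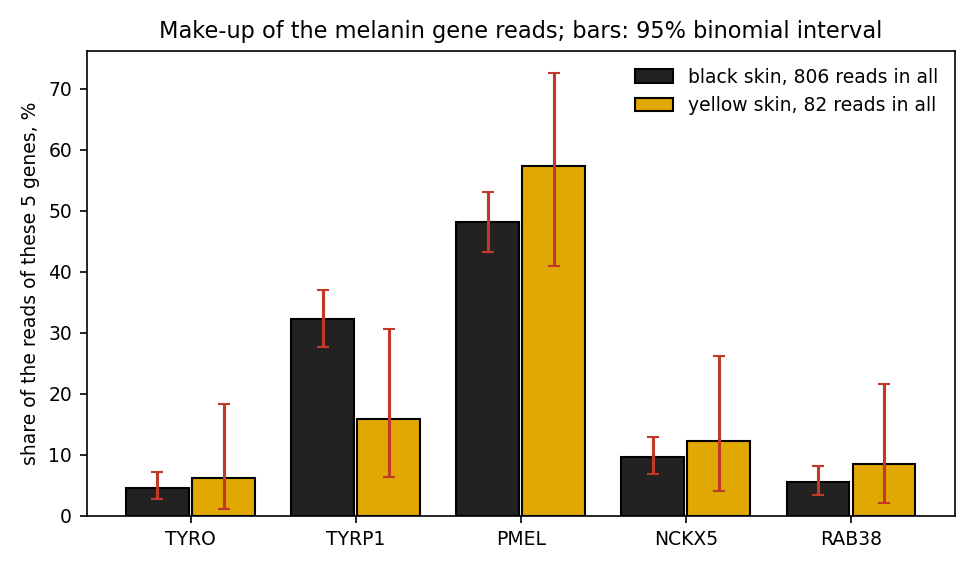
Share of each gene in the reads of the 5 genes, in percent, for the black library (806 reads) and the yellow library (82 reads), with bars for the 95% Clopper-Pearson interval of read pairs. The intervals of the libraries overlap for all 5 genes, and TYRP1 shows the widest gap, 32.3% against 15.9%.

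Other genes of melanin chemistry mostly had no unigene in the annotation used and were not analysed here, among them TYRP2 (dopachrome tautomerase), S45A2, OCA2 and MAR1. Of 16 further genes listed for melanin synthesis and melanosome ion balance, 3 were annotated and all 3 passed the minimum. None of the 3 was called at 2-fold on the log2(RPM + 1) scale, on which NCKX1 was at 0.85, although its RPM ratio of 2.79 exceeds 2. Besides NCKX1, these were TPC2, an endolysosomal cation channel linked to pigmentation in humans, and XCT, the cystine transporter that serves pheomelanin in mice. TPC2 was at 5.68 RPM in black and 4.04 RPM in yellow skin, with a ratio of 1.40 (1.03 to 1.91). XCT was at 30.5 and 31.4 RPM, a ratio of 0.972 (0.864 to 1.09) that included no difference. The intervals of TPC2 and XCT lay below those of all 5 members.

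The machinery that sorts and moves melanosome cargo in many cell types was listed together with proteases of the families that cut PMEL. These genes differed less between the libraries than the members as a sum. Of 44 genes listed, 11 were annotated, all 11 passed the minimum, and 0 were at least 2-fold apart on either scale. Their ratios ran from 0.972 (MYO7A) to 1.80 (FURIN), and 6 of 11 lay above the median ratio of all genes. Their median log2(RPM + 1) ratio was 0.25, beside 0.21 for all genes past the minimum. The proteases FURIN, BACE2 and PCSK6 had the highest ratios of the list, at 1.80, 1.45 and 1.41. Among the other listed genes the highest ratio was 1.28 (MYO5A). AP3D1 and AP3B1, subunits of the AP-3 adaptor that sorts tyrosinase in mammals, had ratios of 1.28 (1.12 to 1.46) and 1.13 (0.615 to 2.08). AP1B1 and AP1S1, of the AP-1 adaptor, and KIF13A, the kinesin that works with it to deliver TYRP1 in human cells, had ratios of 1.15 (1.06 to 1.25), 1.01 (0.923 to 1.12) and 1.20 (1.01 to 1.43). MYO5A, the myosin that carries melanosomes, was at 70.8 and 55.2 RPM with a ratio of 1.28 (1.18 to 1.39), MYO7A, which moves them in the retinal pigment epithelium of mice, had 0.972 (0.839 to 1.13), and PIKFYVE, a lipid kinase of endosome and melanosome maturation, had 1.16 (1.10 to 1.23). The sum of the 11 genes was 441 RPM in the black and 371 RPM in the yellow library, a ratio of 1.19 against 10.6 for the members.

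**Figure D4:**
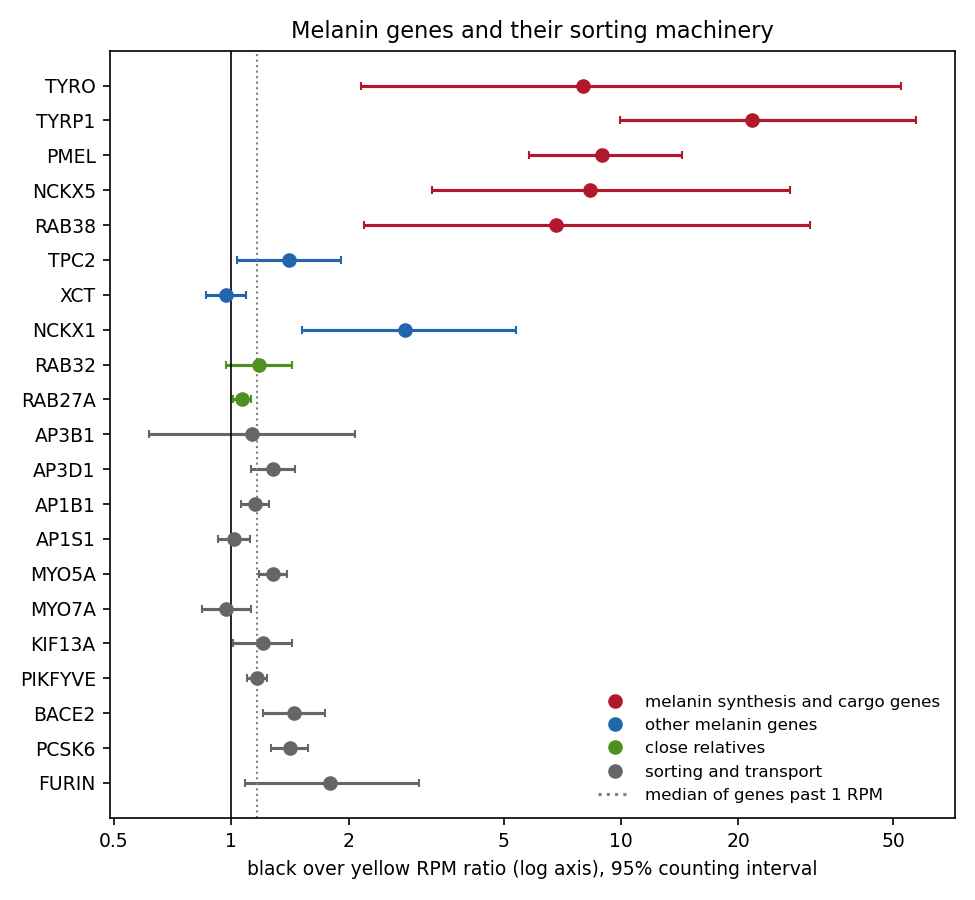
Black over yellow RPM ratio (log axis) with 95% counting intervals for the 5 members, 3 other melanin genes, 2 other Rab genes and 11 sorting and transport genes. The sorting and transport genes include the proteases BACE2, FURIN and PCSK6. The Rab genes, RAB32 and RAB27A, carry the label close relatives, which for RAB27A means only another Rab. The solid line marks no difference and the dotted line the median of genes past 1 RPM. The members lie at 6.81 to 21.7 and the other genes between 0.972 and 2.79.

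The members were also read beside the GO and KEGG groups of the deposited annotation, which were added after that annotation was seen. TYRO and TYRP1 were the 2 genes of the GO term melanosome membrane, and PMEL was the 1 gene of the term melanosome lumen. The wider term melanosome held 39 genes, many of them chaperones, cathepsins and integrins of many cell types, and RAB38 was its 1 member from the set. Of the 39, 35 passed the minimum and 0 were at least 2-fold apart on either scale, with log2(RPM + 1) ratios from -0.60 to 0.74 and a median of 0.36. Of the 3 genes of the term melanin biosynthetic process, CITE1, a transcriptional coactivator, was not a member, and its ratio was 0.884. In the KEGG melanogenesis map, which is mainly receptor, Wnt and kinase signalling and also holds TYRO, 42 of 49 genes passed the minimum. On the log2(RPM + 1) scale 1 of these, the adenylate cyclase ADCY5, passed 2-fold on the black side and 0 on the yellow side, and the median was 0.26. By the RPM ratio itself, 2 genes reached 2-fold on the black side, ADCY5 at 4.33 (2.68 to 7.31) and the G protein subunit GNAI2 at 2.12 (1.60 to 2.83). On the yellow side 1 did, the Wnt signalling protein DVL2, at a black over yellow ratio of 0.441 (0.233 to 0.800).

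The genes whose pattern was most like that of the summed members were sought by the difference of log2 RPM ratios, which over 2 libraries is a weak measure of likeness. Among 3641 other genes past the minimum, the nearest was INP5K, an inositol polyphosphate phosphatase, at 2.49 RPM in black and 0.313 RPM in yellow skin. Its ratio was 7.94 (3.37 to 22.8), 0.42 below the members on the log2 scale. The next were MMP9, a matrix protease, and ZP3, an egg-envelope protein, with ratios of 5.69 (2.64 to 14.0) and 4.76 (3.89 to 5.86), at log2 differences of 0.90 and 1.16. ADCY5, the mitotic kinesin KI18A and the nuclear receptor coactivator NCOA1 followed with ratios of 4.33, 4.23 and 4.22 and log2 differences of 1.30, 1.33 and 1.34. All 6 genes lay below the summed members. That was set in advance, since TYRP1, PMEL and NCKX5 had the highest RPM ratios past the minimum and no other gene reached the summed ratio. The 6 genes are thus simply those with the next highest ratios.

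Among unigenes without a protein match and a mean of at least 5 RPM, 12481 in all, the nearest was c104991_g3. It had 6411 black and 466 yellow reads, or 181 and 12.2 RPM. Its ratio of 14.9 (13.04 to 17.09) lay within the range of the members. Of 4 other unigenes with the same identifier stem, c104991_g5 had a ratio of 12.0 (6.20 to 26.4) and c104991_g1 one of 1.77 (0.549 to 6.35), while c104991_g2 and c104991_g4 had 30 and 21 black reads and 0 yellow reads. No identity can be given to these unigenes here. The next nearest were c107685_g1, with a ratio of 6.82 (5.15 to 9.19), c92397_g1, with 4.75 (3.25 to 7.11), and c106507_g1, with 4.49 (3.70 to 5.47).

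Counted by unigene, 19 of 31795 past a mean of 1 RPM (0.0598%) had a ratio at or above that of NCKX5. This limit was set by a member, so 3 members are in the count by construction and it is a description only. The 19 were 3 members, 15 unigenes without a protein match and 1 other annotated unigene, c89641_g1. The last matched TBX3, a T-box transcription factor, and had 133 black reads and 2 yellow reads, at 3.76 and 0.0522 RPM, a ratio of 72.0 (12.5 to 2887). The summed gene hid this gap, because a second TBX3 unigene, c110350_g2, whose closest nucleotide match was zebrafish tbx3a, was at 10.5 RPM in black and 14.1 RPM in yellow skin. Yellow exceeded black in that unigene by a ratio of 1.35 (1.12 to 1.63). TBX3 was not among the genes the naming rule gave and was picked with its values known.

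Regulators of melanophores and markers of other cells were read beside the members, and the part of either in the gap was not tested. Regulators of melanophores had 3 of 19 listed genes annotated, which summed to 322 RPM in black and 220 RPM in yellow skin. Most of that sum was ERBB3, at 218 and 151 RPM, a ratio of 1.44. KIT had a ratio of 1.39 and AGRP, agouti-related protein, one of 3.36. All 3 lay above 1.17, the median ratio of genes past the minimum, and the ratios of KIT and ERBB3 were nearer to it than that of AGRP. Of the retinal pigment epithelium, which also makes melanin, 1 of 8 markers was annotated, BEST1, at 12.7 and 12.1 RPM. Macrophage and immune markers (4 of 9 annotated) summed to 90.3 and 49.6 RPM, a ratio of 1.82, and most of that sum was CSF1R. Dermal fibroblast markers (3 of 6) summed to 1331 and 822 RPM, a ratio of 1.62. Most of that sum was the collagen CO1A1, at a ratio of 1.56 (1.52 to 1.59). LUM had a larger ratio, 2.76 (2.54 to 2.99), and CO1A2, with 25 reads in all, had 2.78 (0.739 to 13.8), which included no difference. Xanthophore genes (6 of 10) summed to 112 and 78.5 RPM. Most of that sum and of its gap was CSF1R, at 65.3 and 34.8 RPM. GCH1, the first enzyme of pteridine synthesis, was lower in black skin at 6.78 and 11.7 RPM, a ratio of 0.580 (0.461 to 0.727). It was the 1 gene of the 6 with a ratio below 1. Iridophore genes (5 of 10) summed to 177 and 144 RPM, and keratinocyte markers (3 of 9) to 926 and 759 RPM. The largest part of the iridophore sum was GPX1, at 78.7 and 62.9 RPM. ALK was the 1 iridophore gene with a ratio below 1, at 0.929 (0.765 to 1.13), which included no difference. Muscle markers (4 of 9) were the 1 list whose sum was higher in yellow skin, at 2515 and 2847 RPM. ALDOA, at a ratio of 0.819 (0.805 to 0.833), and PGAM2, at 0.734 (0.715 to 0.753), were lower in black skin. The other 2 were higher in black skin, ACTS at a ratio of 1.30 and the calcium pump ATP2A1 at 2.49 (2.17 to 2.86). Blood markers (3 of 5) summed to 69.3 and 54.3 RPM, nearly all of it the transferrin receptor TFR1 at 68.1 and 50.4 RPM. The other blood markers were lower in black skin, the carbonic anhydrase CAHZ at a ratio of 0.319 (0.181 to 0.539) and the band 3 anion exchanger B3AT at 0.379 (0.0776 to 1.38), whose interval included no difference. Nerve and glia markers (3 of 6) summed to 167 and 144 RPM, most of it PMP22 at 158 and 135 RPM. SOX2 was the 1 marker of that list with a ratio below 1, at 0.736 (0.511 to 1.05), which included no difference. The genes named from these lists were picked with their values known. No annotated marker was at 0 reads in either library, and CSF1R stood in both the immune and the xanthophore list. The ratios of these 10 list sums, that of the melanophore regulators (1.46) included, lay between 0.883 and 1.82. All were below the lower bound of 7.71 for the members' sum.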

How the data were processed

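Total RNA of black and of yellow skin was extracted with Trizol and sequenced on standard Illumina libraries, 1 per colour, per the labels' protocols. The zebrafish build GRCz11 is named in the submitters' processing notes, in a role not given. No assembler, aligner or counter is named; these are not given in the sources read. The authors deposited a normalised signal per unigene, read from the values as RPM. A unigene is listed once per predicted protein, and each was used once. The steps between values gave whole reads, each worth 0.0282 RPM in black and 0.0261 RPM in yellow skin. With the lowest value, 0.5 of a read, taken as 0 reads, 100% of values were whole within 0.1 read in each library. In both libraries 2 reads were commoner than 1 or 3 (8897 unigenes against 6459 and 7299 in black, 9992 against 7308 and 8014 in yellow skin), and 4 than 3 or 5, so intervals count mates as 1 pair and are approximate at low numbers.

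The deposited annotation, whose entries are other than measurements, names 4.55% of unigenes, and genes it does not name were not analysed here. Genes are Swiss-Prot entry names, BLASTX first, then BLASTP, summed over unigenes. A call is at least 2-fold on log2(RPM + 1) at a mean of at least 1 RPM. A p-value cannot be had with 1 library per colour. The steps were tested on simulated data drawn in whole read pairs. Odd read numbers occur in the deposited values, so that test cannot show how well the intervals hold for them. Members and gene lists were chosen with earlier results of these data known. Named genes were the members, annotated genes of the melanin, paralog and sorting lists, and the 6 genes and 4 unmatched unigenes nearest in ratio. Of the other lists at most 3 each were named, save for muscle, where all 4 were. Alternatives covered scaling (TMM from edgeR 4.0.16), pseudocount, minimum, fold and joining. Software was Python 3.11.15, scipy 1.17.1 and R 4.3.3.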

Additional observations from a re-analysis of the deposited data

How the results depend on the processing

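No paired analysis was possible because each colour has 1 library. The 6 ratios (5 genes and their sum) stayed within their counting intervals under all 6 alternatives of scaling, joining and match quality. TYRO, TYRP1, PMEL and NCKX5 have 1 unigene each, so taking the most abundant unigene could not change them. Each scaling moved all ratios by 1 factor that is small beside these intervals. Staying within them was thus largely set in advance. TMM scaling, median-of-ratios scaling and totals without the 100 most abundant unigenes lowered every ratio alike, by 0.19, 0.14 and 0.19 on the log2 scale. The ratio of the sum ran from 9.35 to 11.1, and that of RAB38 from 5.98 to 12.6, the latter from its most abundant unigene alone. Genes called higher in black (30) numbered 68 with a pseudocount of 0.1, 11 with 5, 18 at a minimum of 5 RPM and 3 at 4-fold. Genes called higher in yellow (5) numbered 18, 0, 2 and 0 in the same order, and 13 without the 100 most abundant unigenes. TMM scaling gave 22 genes for black and 7 for yellow, and median-of-ratios scaling 24 and 7, a less uneven split than 30 and 5. Members called (3, beside 30 of 3644 genes or 0.823%) numbered 4 without the 100 most abundant unigenes, where 29 of 3731 genes (0.777%) were called. They numbered 2 with a pseudocount of 5, beside 11 of 3644 genes, and 2 at 4-fold, beside 3 of 3644 genes (0.0823%). At a minimum of 5 RPM they numbered 1, PMEL, the only member past it, beside 18 genes called. How many genes passed that minimum was not counted, so no share can be set beside it. By the interval rule all 5 were called, with mates as 1 pair (32 of 4058 genes, 0.789%) or singly. Reads counted singly, the interval rule called 52 of 4058 genes for black and 14 for yellow. Both interval rules were chosen after seeing the data. Counts shift with the pseudocount and minimum by construction. Depth limits the yellow values most, at 5 to 47 reads per member.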

Other observations

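Other enzymes that handle tyrosine and its products, grouped by the KEGG tyrosine metabolism map and chosen after seeing the data, mostly sat with the bulk of genes. Of 14 genes in the map, the member TYRO among them, 10 passed the minimum of 1 RPM. On the log2(RPM + 1) scale 1 of these, QOR, a quinone oxidoreductase, passed 2-fold on the black side, at 6.04 RPM in black and 2.24 RPM in yellow skin with a ratio of 2.69 (1.88 to 3.93), and 0 passed on the yellow side. Their median log2(RPM + 1) ratio was 0.20, beside 0.21 for all genes past the minimum. ATTY, tyrosine aminotransferase, which starts tyrosine breakdown, had 62 black reads and 27 yellow, with a ratio of 2.49 (1.27 to 5.12) that exceeds 2 in RPM but is 0.69 on the log2(RPM + 1) scale. DDC, the decarboxylase that turns DOPA into dopamine, was below the minimum with 16 and 4 reads, and its interval of 0.864 to 41.9 included no difference.

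In the KEGG melanogenesis map, the genes farthest on the yellow side were a pair of low-read Wnt ligand entries, singled out after their values were seen. WN2BA had 2 black and 27 yellow reads and WNT2B 8 and 26. Together they stood at 0.282 RPM in black and 1.38 RPM in yellow skin, so that yellow exceeded black by a ratio of 4.89 (1.85 to 16.3). Whether the entries are 1 gene or separate genes was not tested.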
